A study of Homo sapiens with 2 samples.

Results

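The 10 genes described here encode NUMB, the Notch receptors NOTCH1 and NOTCH2, the TGF-beta receptors TGFBR1 and TGFBR2, their signal carriers SMAD2, SMAD3 and SMAD4, and the Wnt pathway proteins CTNNB1 (beta-catenin) and APC. They were chosen by name, and every peak listed under their Ensembl gene IDs was taken. These came to 47 of the 25920 peaks in replicate 1 and 65 of the 25243 peaks in replicate 2, or 112 of 51163 in all, under 10 of the 8801 gene IDs that carried a peak in either list. All samples belonged to 1 group: NB4 cells, an established line from human acute promyelocytic leukaemia that carries the PML-RARA fusion, with no engineered change or drug named in the labels. Each library came from 25000000 cells that had been irradiated with ultraviolet light at 400 mJ per square centimetre, and an antibody to Musashi-2 (MSI2) recovered the crosslinked RNA fragments, which were sequenced (CLIP-seq). A control antibody, input RNA and cells lacking MSI2 were not analysed here, so a peak cannot be told apart from repeatable background, and a gene's peaks follow the abundance of its transcript as well as binding. Nothing in the labels says that the replicates were separate cultures, so differences between the lists may be technical.

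Musashi proteins bind short single-stranded RNA motifs that contain UAG, often in the 3' untranslated part of a messenger RNA, and can alter its translation or stability. The messenger RNA of Numb was among the first targets described for the mouse family member Msi1. NUMB is an endocytic adaptor that restrains Notch receptors, which are cut upon binding a ligand so that their inner part can act in the nucleus. In the TGF-beta pathway, the ligand joins TGFBR2 to TGFBR1, TGFBR1 phosphorylates SMAD2 and SMAD3, and these enter the nucleus with SMAD4; in blood, this pathway is known for holding stem cells in a resting state. In the Wnt pathway, APC is a scaffold of the complex that marks beta-catenin for destruction. Each peak is given below by its hg19 position and by its tally, the whole number that ends its name in the deposited lists. The tally is 3 or more in every peak. No header says what it counts, and it is treated as a number that behaves like reads. The p-value of a peak is the authors' own. Sharing means that the other list held a peak on the same strand covering 1 nt or more of it, and a shared peak of replicate 1 is called reproducible. Sites are described by position alone, since no sequence or exon position of hg19 was used here.

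The names of peaks also hold a running number within each gene, which rose with position in all 18668 steps of replicate 1 and all 18142 of replicate 2. Some numbers are left out, in 22.9% of the gene IDs of replicate 1 and 23.6% of those of replicate 2. Of the 10 genes, 3 in replicate 1 and 8 in replicate 2 have a number left out, and these come to 3 and 14 numbers. Genes with more peaks have more numbers that could be left out, and the shares are not matched for this. What stood at those numbers was not analysed here, so the lack of a peak in a list does not show that no fragments were found there. Those of NUMB and TGFBR1 in replicate 2 fall on the side where replicate 1 had unmatched peaks, and are given below. In replicate 2, single numbers are also left out in the interval that holds an unmatched replicate 1 peak for NOTCH2, TGFBR2 and CTNNB1, and 2 numbers for SMAD3. In replicate 1, number 0 of SMAD2 is left out, on the side where replicate 2 had an unmatched peak at 45364137 to 45364180 with a tally of 4. The rest fall in intervals where the other list had no peak. In replicate 2 these are numbers 8 and 13 of NOTCH1, 2 and 3 of SMAD2, and 4 and 5 of SMAD3. In replicate 1 they are number 4 of TGFBR1 and number 4 of CTNNB1. Whether left-out numbers go with unmatched peaks was not tested.

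All 10 genes carried peaks in both lists, and 9 of them, all but NUMB, had at least 1 reproducible peak. Over all gene IDs with a peak in either list, 63.1% had peaks in both and 45.5% had a reproducible peak. Of the gene IDs with peaks in both lists, 71.9% had a reproducible peak. These shares are not matched for the number of peaks, whose median over gene IDs was 2 in each list, while 9 of the 10 genes had 3 or more in replicate 1. Of the 7 genes with 3 or more peaks in each list, 6 had a reproducible peak, against 92.5% of all gene IDs with as many. CTNNB1 had 5 reproducible peaks, SMAD2 had 3, and NOTCH1, SMAD3 and SMAD4 had 2 each. NOTCH2, TGFBR1, TGFBR2 and APC had 1 each. The 10 genes together had 18 reproducible peaks, or 38.3% of their 47 peaks in replicate 1 (95% Wilson interval 25.8% to 52.6%), against 35.7% of all peaks of that list. In replicate 2, 16 of their 65 peaks were shared, or 24.6% (15.8% to 36.3%), against 37.3% of all peaks. The intervals cover counting error only, and peaks of 1 gene are not independent of each other, so no test was made of these gaps.

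**Figure D1:**
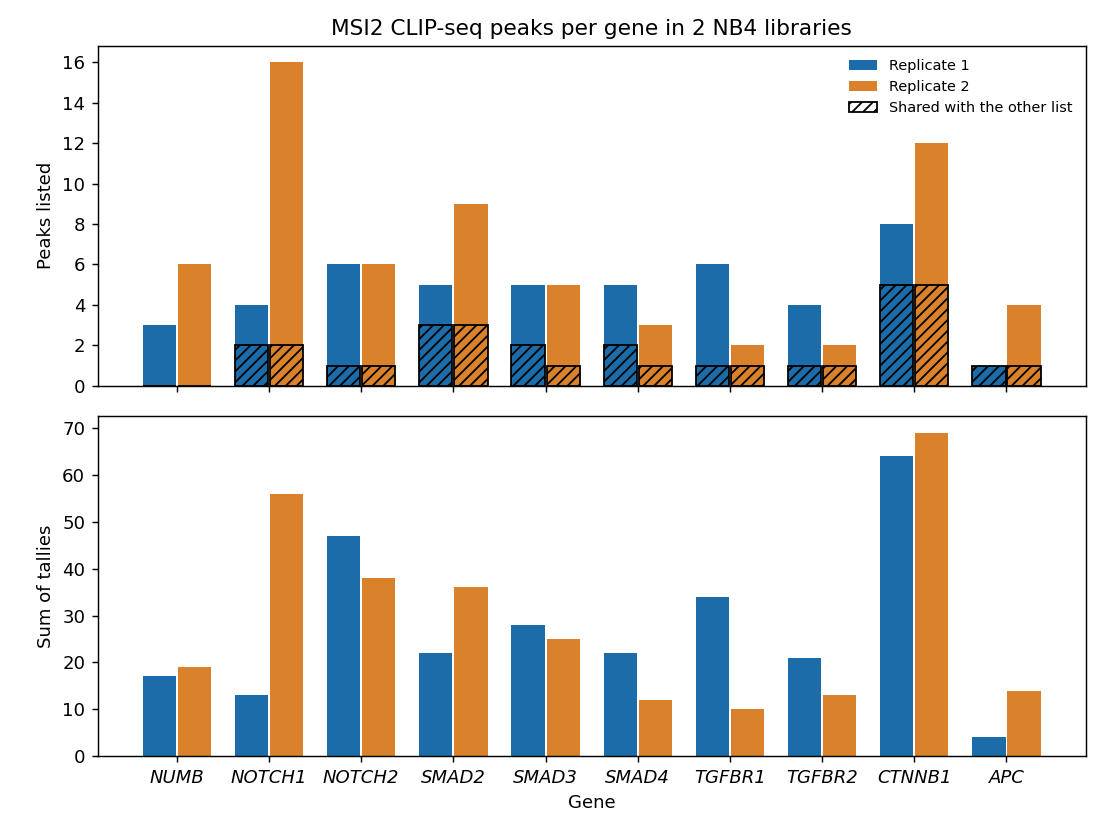
The upper bars give the number of peaks of each gene in replicate 1 (blue) and replicate 2 (orange), with the shared peaks hatched, and the lower bars give the sum of their tallies. NUMB has no shared peak, CTNNB1 has 5 in each list, and NOTCH1 has 16 peaks in replicate 2 against 4 in replicate 1.

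The lists gave these genes unequal numbers of peaks, and not all in the same direction. NOTCH1 had 4 peaks in replicate 1 and 16 in replicate 2, SMAD2 had 5 and 9, CTNNB1 had 8 and 12, NUMB had 3 and 6, and APC had 1 and 4. The TGF-beta receptors and SMAD4 went the other way. TGFBR1 had 6 peaks in replicate 1 and 2 in replicate 2, TGFBR2 had 4 and 2, and SMAD4 had 5 and 3. NOTCH2 had 6 in each list and SMAD3 had 5 in each. The sums of tallies over the 10 genes were closer, at 272 in replicate 1 and 292 in replicate 2, beside 155598 and 133644 over the whole lists. NOTCH1 and TGFBR1, on opposite strands of chromosome 9, differed between the lists in opposite directions, as did SMAD2 and SMAD4, on opposite strands of chromosome 18. So did CTNNB1 and TGFBR2, which both lie on the plus strand of chromosome 3. The cause of these differences was not tested. These counts are not corrected for transcript length or abundance, so they do not rank the genes by binding.

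**Figure D2:**
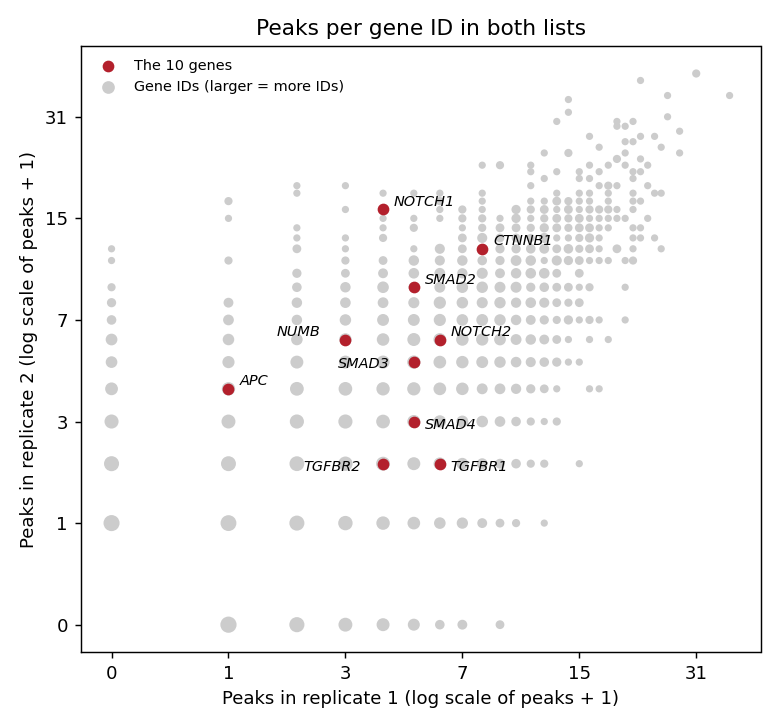
Peaks per gene ID in replicate 1 (x axis) and replicate 2 (y axis), both on a log scale of peaks + 1, with the 10 genes in red and all gene IDs in grey. NOTCH1, at 4 and 16 peaks, lies farthest above the diagonal among the 10, and TGFBR1, at 6 and 2, lies farthest below it.

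NUMB (ENSG00000133961), the inhibitor of Notch, was found in both libraries, but nowhere at the same place. On the minus strand of chromosome 14, replicate 1 listed 3 peaks close together at the 3' side, at 73742001 to 73742082 with a tally of 7, at 73742405 to 73742467 with a tally of 7, and at 73743443 to 73743470 with a tally of 3. Replicate 2 listed no peak there, but its numbering for NUMB begins at 1, and number 0 would fall on this 3' side. Its 6 peaks lay from 73753882 to 73822385, between 11.9 and 80.3 kb upstream of the 3'-most edge, and had a tally of 3 in 5 cases and of 4 in the other. The closest peaks of the lists were 10.4 kb apart. Of those 6 peaks, 4 were pairs that touched end to end, so that joining peaks within 50 nt left 4 sites. Of all replicate 2 peaks with a tally of 3, 15.5% were shared, and of those with a tally of 4, 34.7%. Over all peaks of that list it was 37.3%. Why no peak of NUMB was shared was not tested. Of all replicate 1 peaks with a tally of 7, 55.4% were shared.

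NOTCH1 (ENSG00000148400), a Notch receptor, had many weak peaks in replicate 2 and few in replicate 1. Its tallies were 3, 3, 3 and 4 in replicate 1. In replicate 2 they were 3 in 12 peaks, 4 in 1, 5 in 2 and 6 in 1. Their sum was 13 in replicate 1, beside 56 in replicate 2. NOTCH1 is singled out here because of these counts. With NOTCH1 included, 378 gene IDs had at least its number of peaks in the lists together. Of these, 5, or 1.32%, had a ratio of replicate 2 to replicate 1 at or above its own (log2 ratio of peaks + 0.5 of 1.87). NOTCH1 itself is among the 5. Gene IDs with fewer peaks, some of them with a larger ratio, are left out of this count. The ratio counts touching peaks singly, and no rank was made for joined sites. In replicate 2, 10 of the 16 peaks touched another end to end, and joining peaks within 50 nt left 11 sites against 4 in replicate 1. Over all peaks of replicate 2, 14.1% touched another peak of their gene, against 6.43% in replicate 1.

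NOTCH1 had shared peaks toward both ends of its listed region, on the minus strand of chromosome 9. The upstream peak ran from 139413925 to 139413967 in replicate 1, with a tally of 4, and from 139413925 to 139413985 in replicate 2, with a tally of 5, so that both lists gave the same first position. The other ran from 139391876 to 139391900 in replicate 1, with a tally of 3, and from 139391892 to 139391955 in replicate 2, with a tally of 5, and the overlap was 9 nt. The peak with the highest tally of NOTCH1, 6, lay at 139389184 to 139389233 in replicate 2 and was 177 nt from the nearest peak of replicate 1.

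NOTCH2 (ENSG00000134250), the related receptor, carried its strongest peaks in a short region at the 3' side, and both lists reached a tally of 17 there, but not at the same position. On the minus strand of chromosome 1, replicate 1 listed 5 of its 6 peaks between 120455667 and 120457050, with tallies of 10, 9, 17, 5 and 3 in order of position. Replicate 2 listed 4 of its 6 between 120455109 and 120456997, with tallies of 8, 3, 17 and 4. The replicate 1 peak with a tally of 17, at 120456321 to 120456429 (authors' p 2.10e-12), had no counterpart, and the nearest replicate 2 peak was 86 nt away. That peak of replicate 2, at 120456110 to 120456234 with a tally of 17 (authors' p 1.07e-12), instead overlapped a replicate 1 peak with a tally of 9 at 120456182 to 120456234. The shared pair ended at the same position. In replicate 1, 92.6% of all peaks with a tally of 17 were shared, so the unshared peak was 1 of 10 among 136. In replicate 2, 97.8% of the peaks with that tally were shared. The 3'-most NOTCH2 peak of replicate 2, at 120455109 to 120455164 with a tally of 8, was not shared either, against 72.8% of all replicate 2 peaks with a tally of 8 that were. Upstream, each list had isolated NOTCH2 peaks with a tally of 3, at 120506402 to 120506430 in replicate 1 and at 120493404 to 120493439 and 120543895 to 120543936 in replicate 2. The 5' part of NOTCH2 has near-identical copies in the NOTCH2NL genes, so the origin of reads in that part is uncertain, and whether the upstream peaks lie in it was not tested.

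**Figure D3:**
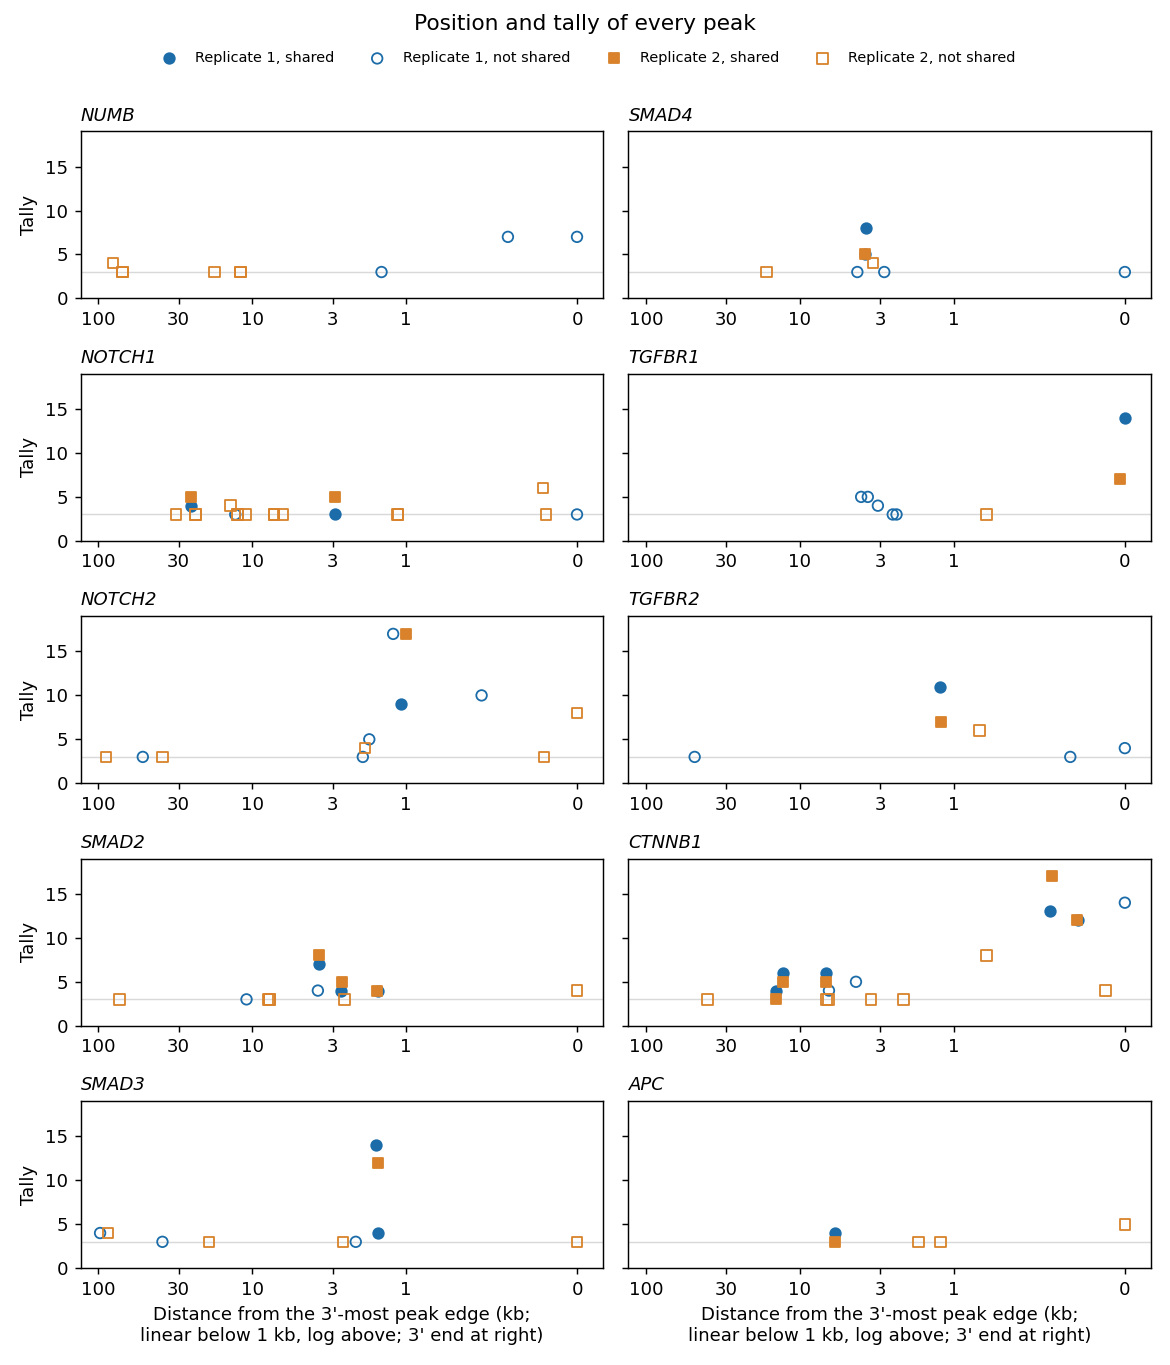
Each panel shows every peak of 1 gene by its distance in kb from the 3'-most peak edge in either list (linear below 1 kb and logarithmic above, with the 3' end at right) and its tally, with replicate 1 as circles, replicate 2 as squares and shared peaks filled. The peaks of NUMB fall in separate parts of the gene in the 2 lists, and the tallies of 17 in NOTCH2 and CTNNB1 lie near the 3' end.

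TGFBR1 (ENSG00000106799), the receptor kinase that phosphorylates SMAD2 and SMAD3, had 1 strong site found in both libraries. On the plus strand of chromosome 9 it ran from 101915810 to 101915919 in replicate 1, with a tally of 14 (authors' p 1.03e-08), and from 101915825 to 101915888 in replicate 2, with a tally of 7 (authors' p 0.000158). The smaller peak lay wholly inside the larger, with an overlap of 64 nt. Replicate 1 also listed 5 peaks from 101911868 to 101913562, with tallies of 5, 5, 4, 3 and 3. None of them was met in replicate 2, whose other peak was at 101915078 to 101915110 with a tally of 3. Numbers 0 and 1 of TGFBR1 are left out in replicate 2, and they would precede that peak, on the side of the 5 unmatched peaks. All peaks of TGFBR1 fell within 4.05 kb.

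TGFBR2 (ENSG00000163513), the receptor that binds the ligand first, likewise had 1 shared site, on the plus strand of chromosome 3. It ran from 30733802 to 30733876 in replicate 1, with a tally of 11, and from 30733792 to 30733890 in replicate 2, with a tally of 7. The centres of their inner intervals lay 4 nt apart. On the 3' side of this site the lists had different further peaks, with tallies of 3 and 4 in replicate 1 at 30734766 to 30734791 and 30735060 to 30735110, and a tally of 6 in replicate 2 at 30734214 to 30734259. A single peak with a tally of 3, at 30686761 to 30686803 in replicate 1, lay 48.3 kb upstream of the 3'-most edge.

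SMAD2 (ENSG00000175387), which TGFBR1 phosphorylates, had 3 weak to moderate sites at matching positions in both lists, on the minus strand of chromosome 18. The strongest ran from 45367790 to 45367845 in replicate 1, with a tally of 7, and from 45367786 to 45367844 in replicate 2, with a tally of 8, and their overlap was 55 nt. A site at 45366768 to 45366818 had a tally of 4 in replicate 1 and met a replicate 2 peak at 45366749 to 45366807 with a tally of 5. A site at 45365668 to 45365707 had a tally of 4 in replicate 1 and met a peak at 45365676 to 45365728 with a tally of 4. These lay 1.53 to 3.65 kb from the 3'-most edge. A peak of replicate 1 at 45367874 to 45367911, with a tally of 4, missed the strongest site of replicate 2 by 29 nt. The peaks more than 5 kb upstream of the 3'-most edge, 1 in replicate 1 and 4 in replicate 2, all had a tally of 3 and were not shared.

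SMAD3 (ENSG00000166949), the close relative of SMAD2, had a single strong site, on the plus strand of chromosome 15. Replicate 1 split it into touching peaks at 67485790 to 67485873, with a tally of 14, and 67485874 to 67485913, with a tally of 4. Replicate 2 listed 1 peak from 67485805 to 67485912 with a tally of 12 that overlapped both, so the 2 reproducible peaks of SMAD3 stand for 1 site. The other peaks had tallies of 3 or 4 in each list, and none of them was shared.

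SMAD4 (ENSG00000141646), the common partner of SMAD2 and SMAD3, was met at 1 place on the plus strand of chromosome 18. Replicate 1 listed peaks at 48606026 to 48606079, with a tally of 5, and at 48606087 to 48606143, with a tally of 8, and replicate 2 listed 1 peak at 48606052 to 48606100, with a tally of 5, that overlapped the first by 28 nt and the other by 14 nt. The 2 reproducible peaks of SMAD4 thus also met a single peak of replicate 2. The replicate 1 peaks at 48605603 to 48605647, 48607004 to 48607051 and 48609845 to 48609883 had tallies of 3 each and were not shared. Replicate 2 had unshared peaks at 48606473 to 48606523, with a tally of 4, and 48593397 to 48593430, with a tally of 3.

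CTNNB1 (ENSG00000168036), the coactivator at the end of the Wnt pathway, had the most reproducible peaks and the highest sums of tallies of the 10 genes, 64 in replicate 1 and 69 in replicate 2. Of all gene IDs with a peak in either list, 94.98% had fewer reproducible peaks. This share does not allow for transcript length or number of peaks, and it includes gene IDs with peaks in 1 list only. Of the gene IDs with a peak in replicate 1, 88.8% had fewer peaks there than CTNNB1. On the plus strand of chromosome 3, a dense region at the 3' side held its strongest sites. The site at 41281153 to 41281215 had a tally of 13 in replicate 1 and met a replicate 2 peak at 41281155 to 41281227 with a tally of 17 (authors' p 2.82e-11). The site at 41281326 to 41281379 had a tally of 12 in replicate 1 and met a peak at 41281321 to 41281375 with a tally of 12. The replicate 1 peak with the highest tally, 14, at 41281592 to 41281654, was not overlapped in replicate 2, where the nearest peak, at 41281528 to 41281542 with a tally of 4, was 49 nt away. Of all replicate 1 peaks with a tally of 14, 83.6% were shared. A replicate 2 peak at 41280797 to 41280846, with a tally of 8, had no counterpart in replicate 1.

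CTNNB1 also had 3 shared sites farther upstream, with tallies of 3 to 6. They ran from 41267212 to 41267263, from 41268808 to 41268844 and from 41274832 to 41274860 in replicate 1, with tallies of 4, 6 and 6. In replicate 2 they ran from 41267229 to 41267264, from 41268820 to 41268844 and from 41274832 to 41274859, with tallies of 3, 5 and 5. The last of these began at the same position in both lists and the middle one ended at the same position. In the shared pairs of CTNNB1, the tallies of the lists differed by 1 in all 3 upstream sites and by 4 or less at the 3' side, which leaves out the unmatched peaks with tallies of 14 and 8.

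APC (ENSG00000134982), a scaffold of the beta-catenin destruction complex, had few and weak peaks. On the plus strand of chromosome 5, the only peak of replicate 1 ran from 112174188 to 112174223 with a tally of 4, and it was overlapped by a replicate 2 peak at 112174191 to 112174221 with a tally of 3. Replicate 2 had further peaks at 112178398 to 112178433, 112178878 to 112178909 and 112180084 to 112180127, with tallies of 3, 3 and 5. The lists also give shorter intervals under ENSG00000258864.1 inside APC peaks, at 112174203 to 112174215 in replicate 1 with a tally of 4 and at 112180103 to 112180115 in replicate 2 with a tally of 5. The tally equals that of the enclosing APC peak in both cases, so the assignment of these sites to APC is uncertain. No other peak of the 10 genes overlapped a peak of another gene ID in the same list.

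Peaks with the lowest tally were seldom shared, and they made up more of the peaks of the 10 genes in replicate 2 than in replicate 1. A tally of 3 was found in 16 of 47 peaks (34.04%) in replicate 1, against 35.7% of all peaks, and in 39 of 65 (60%, Wilson interval 47.9% to 71.0%) in replicate 2, against 45.3% of all peaks. Of these, 1 of 16 was shared in replicate 1, or 6.25% (1.11% to 28.3%), against 11.9% of all peaks with that tally. In replicate 2, 2 of 39 were shared, or 5.13% (1.42% to 16.9%), against 15.5%. With a tally of 4, 6 of 11 were shared in replicate 1, or 54.5% (28.0% to 78.7%), against 24.7% of all such peaks, and 1 of 8 in replicate 2, or 12.5% (2.24% to 47.1%), against 34.7%. With a tally of 5 to 9, 6 of 12 peaks of replicate 1 (50%, interval 25.4% to 74.6%) and 9 of 14 peaks of replicate 2 (64.3%, interval 38.8% to 83.7%) were shared, against 47.6% and 57.4% of all such peaks. With a tally of 10 or more, 5 of 8 peaks of replicate 1 (62.5%, interval 30.6% to 86.3%) were shared, against 87.1% of all such peaks, and 4 of 4 in replicate 2, against 89.4%. The 3 strong peaks of replicate 1 without a counterpart were 2 of NOTCH2, with tallies of 10 and 17, and 1 of CTNNB1, with a tally of 14. All 3 lay between 49 and 339 nt from the nearest replicate 2 peak of the same gene.

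**Figure D4:**
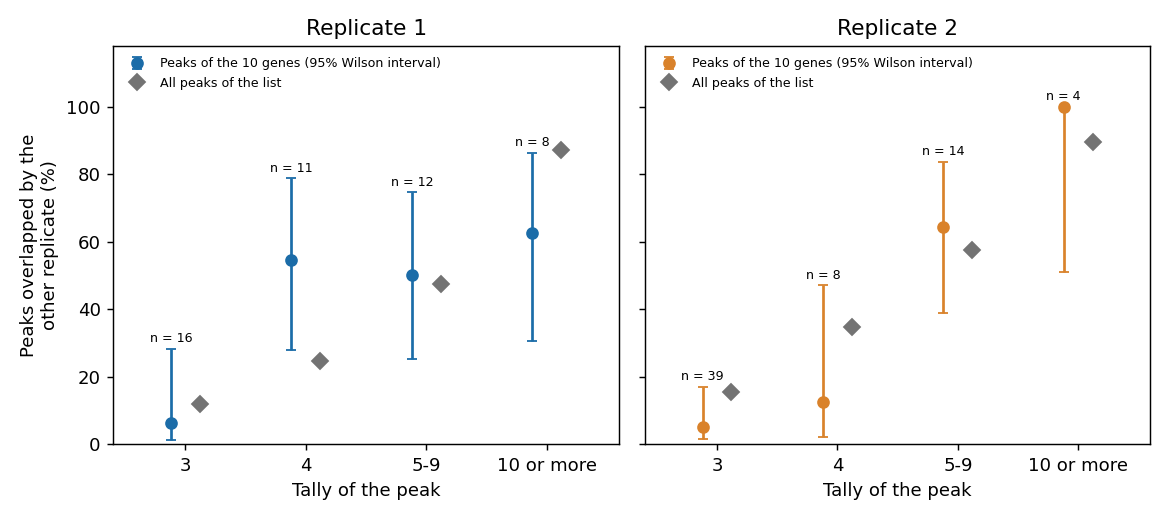
Share of peaks overlapped by the other replicate (%, y axis) by tally (x axis), for the peaks of the 10 genes (circles, with 95% Wilson intervals and the number of peaks) and for all peaks of the list (grey diamonds), in replicate 1 and replicate 2. In replicate 1 the value of all peaks falls outside the interval of the 10 genes at a tally of 4, where 54.5% stand against 24.7%, and just outside it at 10 or more, where 62.5% stand against 87.1%. In replicate 2 it falls inside each interval. The intervals cover counting error only, and peaks of 1 gene are not independent, so no test is made here. The shared peaks with a tally of 4 in replicate 1 include the SMAD3 peak that touches the one with a tally of 14.

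The peaks of these genes with a tally of 10 or more lay toward the 3' side, as most did over the lists. In the 8 genes whose peaks spanned 10 kb or more, and leaving out the peak that sets the 3' edge, which lies there by definition, 6 of 6 peaks of replicate 1 with a tally of 10 or more were within 5 kb of the 3'-most peak edge (Wilson interval 61.0% to 100%), against 71% of all such peaks. In replicate 2 it was 4 of 4 (51.0% to 100%), against 70.3%. These strong peaks belonged to NOTCH2, SMAD3 and CTNNB1 in both lists and to TGFBR2 in replicate 1. With edge peaks included, the highest tally of a gene lay within 5 kb in 8 of the 10 genes in replicate 1. In replicate 2 it did so in 9. The exceptions were NOTCH1, at 24.9 kb, and APC, at 5.90 kb, in replicate 1, and NUMB, at 80.3 kb, in replicate 2. No such share over all gene IDs is given here. The 9 peaks of replicate 1 and 23 of replicate 2 that lay more than 10 kb upstream had tallies of no more than 6 and 5. Their median tally was 3 in each list, against 4 and 3 over all peaks that far upstream. Among those upstream peaks of the 10 genes, 3 in each list were shared, or 33.3% (Wilson interval 12.1% to 64.6%) in replicate 1 and 13.04% (4.54% to 32.1%) in replicate 2, against 23.7% and 23.9% of all peaks that far upstream. They belonged to NOTCH1 and CTNNB1. In the same 8 genes, again without the edge peak, 18 of 35 peaks of replicate 1 were within 3 kb of that edge (51.4%, Wilson interval 35.6% to 67.0%), against 36% of all such peaks. In replicate 2 it was 20 of 56 (35.7%, interval 24.5% to 48.8%), against 34.7%. The edge is that of the peaks and not of the annotated gene.

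In the 18 shared pairs of the 10 genes, the median distance between the centres of the inner intervals was 12 nt, against 7 nt over all pairs. The centres were within 10 nt in 7 of the 18, against 66.9% of all pairs. In SMAD3, at 34 and 26 nt, and in SMAD4, at 20 and 51 nt, 2 replicate 1 peaks met the same replicate 2 peak. The pairs of each of these genes thus stand for a single site. Neither share was corrected for such cases. The largest distance, 51 nt, was that of the second SMAD4 peak, and the next, 40 nt, that of the NOTCH1 pair at the 3' side. The pairs within 10 nt were those of TGFBR2 and APC, 1 of SMAD2 and 4 of the 5 of CTNNB1. The tally was higher in replicate 1 in 8 pairs, equal in 3 and higher in replicate 2 in 7. The same first or last position was given in 4 of the 18 pairs, 1 of NOTCH1, 1 of NOTCH2 and 2 of CTNNB1, against 13.4% of all pairs. These gaps were not tested, since pairs of 1 gene are not independent.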

How the data were processed

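The values are those of the peak lists deposited by the authors for 2 MSI2 CLIP-seq libraries from NB4 cells, with 1 list per library. The submitters' processing notes name cutadapt, Bowtie 1.0.0, STAR 2.3.0e and build hg19, and the list names record trimming and removal of duplicate reads. Neither a peak caller nor a library depth was found in the labels or files. Each p-value was deposited by the authors, and no source says if it was adjusted. Positions are printed counted from 1. The members, lists and measures were chosen with earlier results of these data known. All 10 genes and all their shared and strongest peaks were described. Overlaps were computed in Python 3.11.15 with NumPy 2.4.6, pandas 2.3.3 and SciPy 1.17.1 and plotted with matplotlib 3.10.9. The overlap calls were tested on simulated data with 5000 peaks, and 0 were wrong. No test between conditions was possible with 1 group. Other pathway genes and cell type markers, listed by symbol, were not analysed here, because no table used here pairs their symbols with the gene IDs of the lists.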

Additional observations from a re-analysis of the deposited data

How the results depend on the processing

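Of 38 recomputed values, 27 stayed within the margin set for them. The size of the margin is not given here, so this count is no measure of stability. It includes the 10 genes with peaks when replicate 1 or 2 was left out. That value was fixed in advance, since all 10 had peaks in both lists. The alternatives that left out NOTCH1 or CTNNB1, and those on distance to the 3' side and on touching peaks, were chosen after seeing the data. Limiting the lists to a tally of 5 or more left 20 peaks of the 10 genes in replicate 1 and 18 in replicate 2, and raised the shared part to 55% and 55.6%, against 43.7% and 56.2% over all peaks. The stronger 50% by the authors' p left 23 and 26 peaks, and the shared part of replicate 2 was then 42.3%, against 46.3% over all peaks. These lists are shorter by construction. Adding 100 nt to both sides of each peak, which makes overlap easier, raised the shared part of replicate 1 to 53.2%, against 48.5% over all peaks. The shared part of replicate 2 was 28.6% without NOTCH1 and 20.8% without CTNNB1, beside 37.3% over all peaks of the full list. It was 21.5% under a reciprocal overlap of 50%, against 27.5% over all peaks, and 24.6% with midpoints within 50 nt, against 37.9%. With 100 nt added it was 35.4%, against 49.9%, and with peaks within 50 nt joined 28.1%, against 39.1%. Under each of these changes of overlap or joining, the value of replicate 1 lay above that over all peaks, if barely with peaks joined (36.4% against 36.2%). The number of genes with peaks in both lists fell from 10 to 7 at a tally of 5 or more, where the share over all gene IDs was 57.8%. This fall was counted as within the margin. The number of genes with a reproducible peak ran from 7 to 9, while the share over all gene IDs ran from 40.3% to 49.5%. The 7 were found at a tally of 5 or more, where that share was 49.1%. These shares are not matched for the number of peaks. NUMB had none under any of the 6 alternatives. That too was fixed in advance, since its closest peaks of the lists lay 10.4 kb apart. NOTCH2 lost its only one under a reciprocal overlap of 50%, NOTCH1 and APC lost theirs at a tally of 5 or more, and APC also under the stronger 50%. With replicate 1 or 2 left out, all 10 genes still had peaks, and sharing has no value. The share of replicate 1 peaks near the 3'-most edge was 14.3% within 1 kb and 68.6% within 5 kb, against 19% and 43.4% over all peaks, so its order against all peaks depended on the distance chosen. The same share of replicate 2 was 14.3% within 1 kb, against 19.3%. No paired analysis was possible because there is a single group. The alternatives for other Notch, TGF-beta and Wnt genes and for sequence under the peaks were not run, for want of a table of gene IDs and a genome of this build. Library depth is unknown, so no floor can be given for a gene's missing peaks.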
